A study of Mus musculus with 4 samples.

Results

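The aryl hydrocarbon receptor system was followed in mouse intestinal epithelium through 7 genes: the receptor gene Ahr, its partner gene Arnt, the repressor gene Ahrr, and the target genes Cyp1a1, Cyp1b1, Tiparp and Nqo1. They were picked by gene symbol, with the earlier finding known that Cyp1a1 stood higher on both germ-free arrays, so their values are a description and not a test. The 7 genes had 16 probe sets among 45037 after controls were set aside (3 for Cyp1b1 and Tiparp each, 2 for Ahr, 5 for Arnt, 1 for the others), and the arrays named 18193 genes in all. The 4 groups were proximal colon of germ-free C57BL/6 mice, proximal colon of wild type C57BL/6 mice, ileum of germ-free mice and ileum of wild type mice. Germ-free mice are raised without microbes, and the wild type mice served as their controls. Every group was C57BL/6, and the age of the mice was not used here. About 16000 epithelial cells were cut by laser from 10 µm frozen sections for each group, about 4000 from each of 4 mice, and the pooled RNA (40 ng, amplified in 2 rounds) went onto 1 array. With 1 array per group there is no replicate check, no spread between mice and no p-value for any difference below, and precision is limited by having so few arrays.

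The aryl hydrocarbon receptor is a ligand-activated transcription factor held in the cytoplasm by chaperones. Ligands include planar pollutants, plant indoles from the diet and tryptophan products of microbes and of the host. The liganded receptor enters the nucleus, pairs with the Arnt protein and binds xenobiotic response elements with the core GCGTG. In the intestine the receptor is known for its part in barrier immunity and for driving the P450 enzyme CYP1A1, which in turn breaks down the receptor's own ligands.

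Values are probe set intensities after quantile normalization, and each gene is represented by its brightest probe set. An intensity under the pooled median of 62.4 was set to that floor before a change was computed, and a gene with neither array of a comparison above the floor was not measured in it. Where 1 of the 2 values was floored, the change is a minimum. The arrays of 1 region were more alike than arrays of different regions: across the 25831 probe sets that passed the floor somewhere, Pearson's r of the log2 values was 0.951 for the colon pair and 0.975 for the ileum pair, against 0.879 to 0.886 across regions. The summed intensity of 10 epithelial markers, such as Epcam and Vil1, was between 89171 and 101736 on the 4 arrays. Plasma and B cell markers (6 genes) summed to 918 in germ-free colon against 6419 in wild type colon, and to 2685 in germ-free ileum against 12393 in wild type ileum. The largest terms, germ-free against wild type, were Igha (501 against 4609 in colon, 1712 against 7204 in ileum) and Jchain (197 against 1549 in colon, 704 against 4808 in ileum). Mzb1 read 143 against 149 in colon and 186 against 239 in ileum. Cd79a and Ms4a1 were below the floor on all arrays. Lymphocyte markers (8 genes) summed to 838 in germ-free colon against 1279 in wild type colon, and to 1208 in germ-free ileum against 1943 in wild type ileum. Of these, Cd3d, Cd3e and Cd3g were below the floor on all arrays, and the 5 measured ones were all lower on the germ-free array in both regions, 2 of them past 2-fold in each. Gzma, a granule protease of cytotoxic lymphocytes, was lower by at least 2.46-fold in germ-free colon and by 3.08-fold in germ-free ileum. Markers of small intestinal enterocytes (9 genes) summed to 20491 in germ-free colon against 16932 in wild type colon, with 2 past 2-fold there: Slc15a1, a peptide transporter (586 in germ-free against 81.3 in wild type colon), and Apoa1, an apolipoprotein (245 in germ-free against 34.8 in wild type colon). They summed to 53811 in germ-free ileum against 52010 in wild type ileum, with 0 past 2-fold. Colonocyte markers (7 genes) summed to 25148 in germ-free colon against 31825 in wild type colon, and the water channel gene Aqp8 read 76.4 in germ-free against 545 in wild type colon. In ileum they summed to 8135 in germ-free against 6507 in wild type. Smooth muscle and pericyte markers (9 genes) summed to 2488 in germ-free colon against 2436 in wild type colon, and to 3429 in germ-free ileum against 7633 in wild type ileum. Endothelial markers (8 genes) summed to 336 in germ-free colon against 744 in wild type colon, and to 531 on both ileum arrays. Myeloid markers (9 genes) summed to 2100.2 in germ-free colon against 2263 in wild type colon, and to 3106 in germ-free ileum against 3755 in wild type ileum. Of the 7 measured in ileum, 5 were lower and 2 higher in germ-free. Lyz2 read 888 in germ-free against 1791 in wild type ileum, a larger drop than that of the sum. Csf1r (1325 against 1038) and Adgre1 (325 against 244) were higher in germ-free ileum. Of the 6 myeloid markers measured in colon, 4 were lower and 2 higher in germ-free. Adgre1 read 221 in germ-free against 472 in wild type colon, and Cd14 read 673 in germ-free against 342 in wild type colon. The 18S ribosomal RNA control was lower on the germ-free array in colon (log2 -1.23) and ileum (log2 -0.93), and the 5' signal relative to the 3' signal was lower on the germ-free array for Gapdh, Actb and pyruvate carboxylase in both regions (log2 shifts of -0.12 to -0.48 in colon and -0.28 to -1.20 in ileum). The labels name hematoxylin staining for the germ-free samples alone. RNA quality, staining and the germ-free state cannot be told apart here.

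Cyp1a1, the best known target of the receptor, was the 1 gene of this system past 2-fold. Its single probe set (1422217_a_at) read 369.6 in germ-free colon against 17.9 in wild type colon, and 282 in germ-free ileum against 53.0 in wild type ileum. Both germ-free arrays were above the floor and both wild type arrays were below it. The change was therefore a bound, at least 5.92-fold higher in germ-free colon (log2 at least 2.57) and at least 4.52-fold higher in germ-free ileum (log2 at least 2.18). Without a floor the same values differ by 4.36 log2 in colon and 2.42 log2 in ileum, and both of these values use wild type readings below the floor, which have no order. As deposited, before further scaling, the values were 425 in germ-free colon against 18.9 in wild type colon and 262 in germ-free ileum against 52.4 in wild type ileum. Raising the floor to the 75th percentile (259) lowered these minimum changes: they were 0.52 in colon and 0.13 in ileum, short of 2-fold. The suffix of this probe set marks probes shared by alternative transcripts of the same gene, and no other Cyp1a1 probe set was there to check it. In RNA from pooled captured tissue, fewer cells of a type and less RNA per cell cannot be told apart. The plasma cell and lymphocyte marker sums, the 18S signal and the 5' signal given above were lower on the germ-free array in both regions. So were the fibroblast marker sums given with Cyp1b1. The myeloid sum was lower too, but in ileum Lyz2 alone fell by more than the sum did. In colon the myeloid markers Adgre1 and Cd14 went opposite ways. The colon pair also differed in enterocyte, colonocyte and endothelial markers, and the ileum pair in smooth muscle markers. The part of any of these in the Cyp1a1 difference was not tested.

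**Figure D1:**
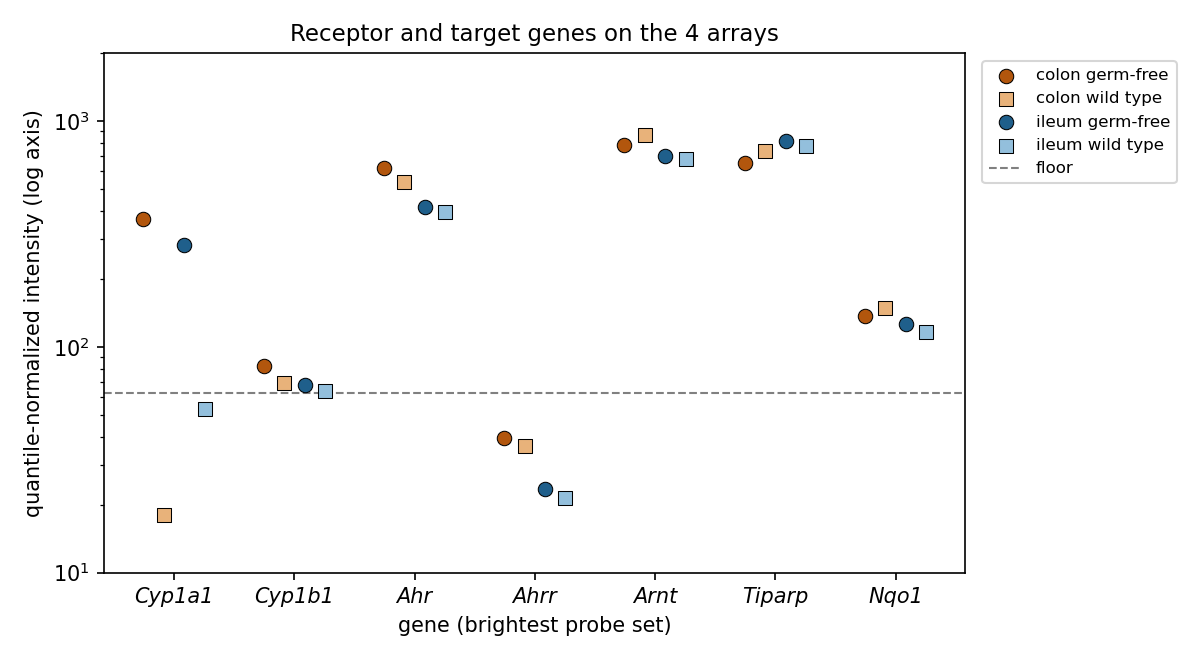
Quantile-normalized intensity (log axis) of each gene's brightest probe set on the 4 arrays (circles germ-free, squares wild type; brown colon, blue ileum), with the floor of 62.4 as a dashed line. Cyp1a1 is the gene whose germ-free points (369.6 and 282) lie apart from its wild type points (17.9 and 53.0), while all 4 points of Ahrr lie below the floor.

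The start regions of 3 target genes are shown because Cyp1a1 was past 2-fold and Cyp1b1 and Tiparp, targets of the same receptor, were not. Each is the RefSeq window of 300 bases in GRCm38.p6, 250 before and 50 after the gene's start, printed 5' to 3' on the gene's strand. Capitals mark the response element core GCGTG, or CACGC where it lies on the opposite strand.
Cyp1a1, chr9:57697363-57697662 (plus strand): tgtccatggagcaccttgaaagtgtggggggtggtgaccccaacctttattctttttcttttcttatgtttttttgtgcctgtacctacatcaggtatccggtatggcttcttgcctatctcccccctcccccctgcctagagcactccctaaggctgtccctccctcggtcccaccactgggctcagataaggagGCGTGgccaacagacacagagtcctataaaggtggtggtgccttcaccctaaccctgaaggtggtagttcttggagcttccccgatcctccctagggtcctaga
Cyp1b1, chr17:79715012-79715311 (minus strand): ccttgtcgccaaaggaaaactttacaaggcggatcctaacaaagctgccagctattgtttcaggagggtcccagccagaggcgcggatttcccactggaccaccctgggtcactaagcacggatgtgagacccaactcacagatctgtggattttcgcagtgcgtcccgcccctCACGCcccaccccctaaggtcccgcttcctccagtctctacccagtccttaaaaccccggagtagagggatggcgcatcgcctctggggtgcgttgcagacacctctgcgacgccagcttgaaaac
Tiparp, chr3:65528197-65528496 (plus strand): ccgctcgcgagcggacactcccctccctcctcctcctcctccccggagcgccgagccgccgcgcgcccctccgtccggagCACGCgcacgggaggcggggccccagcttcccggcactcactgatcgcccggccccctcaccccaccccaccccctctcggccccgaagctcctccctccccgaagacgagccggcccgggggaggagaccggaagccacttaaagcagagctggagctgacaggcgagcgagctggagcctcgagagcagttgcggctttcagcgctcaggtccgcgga

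All 3 windows hold the core once. In Cyp1a1 it starts 54 bases before the gene's start, on the gene's own strand. In Cyp1b1 and Tiparp it lies on the opposite strand and begins 76 and 170 bases before the start. Of the 7 genes, 6 matched a window in the RefSeq table, and 5 of them held GCGTG on either strand, with 3 copies in Ahrr, 1 in Arnt and 0 in Nqo1. The core was in 32.4% of all 32851 windows, so its presence is common. The longer motif TNGCGTG, which contains the core, was in 5.07% of all windows and, among these genes, in Ahrr alone. A match is a run of letters and not a shown binding site, and the enhancer through which the receptor is known to drive Cyp1a1 lies further upstream than this window.

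Cyp1b1 encodes a second dioxin-inducible P450, which in many tissues is found in stromal cells. Its brightest probe set read 82.2 in germ-free colon against 69.4 in wild type colon, and 67.7 in germ-free ileum against 63.8 in wild type ileum. All 4 readings were close above the floor, and the changes were 0.25 log2 in colon and 0.09 log2 in ileum. The other 2 probe sets were below the floor on all arrays, between 2.63 and 15.4. Fibroblast markers (10 genes) summed to 2772 in germ-free colon against 3606 in wild type colon and to 2418 in germ-free ileum against 3786 in wild type ileum. Of the 8 measured in colon, 7 were lower in germ-free and 1, Vim, was higher (760 against 583). Of the 10 measured in ileum, 8 were lower in germ-free and 2, Col1a1 and Col6a1, were higher. The part of the fibroblast markers in the Cyp1b1 values was not tested.

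Tiparp encodes a mono-ADP-ribosyltransferase that the receptor induces and that in turn damps the receptor. Its brightest probe set (1426721_s_at) read 649.0 in germ-free colon against 735 in wild type colon, and 817 in germ-free ileum against 773 in wild type ileum. The groups lay close together, at log2 changes of -0.18 and 0.08, and the colon sign turned under 2 other scalings (0.01 as deposited, 0.04 with median scaling). The next probe set (1452160_at) read 611 in germ-free colon against 479 in wild type colon and 689 in germ-free ileum against 600.1 in wild type ileum, which are changes of 0.35 and 0.20. The third (1452161_at) read 138 in germ-free colon against 126 in wild type colon and 219 in germ-free ileum against 187 in wild type ileum. All 3 probe sets were designed on the same expressed sequence, and the colon change is slightly negative by 1 of them and positive by the other 2.

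Ahrr encodes the receptor's repressor, a relative that competes for Arnt and is itself a target. Its probe set read 39.3 in germ-free colon against 36.2 in wild type colon, and 23.4 in germ-free ileum against 21.5 in wild type ileum. All were below the floor, so no change was measured. Nqo1 encodes a quinone reductase that answers both to this receptor and to the oxidative stress factor NRF2. It read 136.5 in germ-free colon against 149 in wild type colon, and 127 in germ-free ileum against 117 in wild type ileum. The changes of -0.12 and 0.12 log2 were small, and the colon one turned positive as deposited (0.04) and with median scaling (0.06).

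Ahr itself read 622 in germ-free colon against 538 in wild type colon, and 417 in germ-free ileum against 395 in wild type ileum. The receptor's transcript was thus above the floor in all 4 captures, with changes of 0.21 log2 in colon and 0.08 in ileum. The colon change was 0.40 as deposited and 0.43 with median scaling. A dimmer Ahr probe set from the same expressed sequence was below the floor throughout, between 47.0 and 54.2. Arnt, the dimerisation partner that the receptor shares with the hypoxia factors, read 783 in germ-free colon against 865 in wild type colon, and 699 in germ-free ileum against 682 in wild type ileum. Its changes of -0.14 and 0.04 log2 both took the other sign as deposited (0.01 and -0.01), and the colon change was also positive with median scaling (0.04).

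Of the other 4 Arnt probe sets, 2 rest on a single expressed sequence tag and read opposite ways in colon. The probe set 1449696_at read 29.4 in germ-free colon against 81.7 in wild type colon, while 1419996_s_at read 88.4 in germ-free colon against 40.1 in wild type colon. In ileum 1449696_at read 159 in germ-free against 122 in wild type, and 1419996_s_at 64.6 in germ-free against 71.0 in wild type. Each colon pair has 1 reading below the floor, and the floored changes were -0.39 and 0.50. The remaining pair was below the floor on every array, between 4.70 and 46.9. Of this pair, 1421721_a_at (13.7 to 46.9) is the Arnt probe set designed on the RefSeq mRNA. The brightest Arnt probe set, used above, rests on an expressed sequence.

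**Figure D2:**
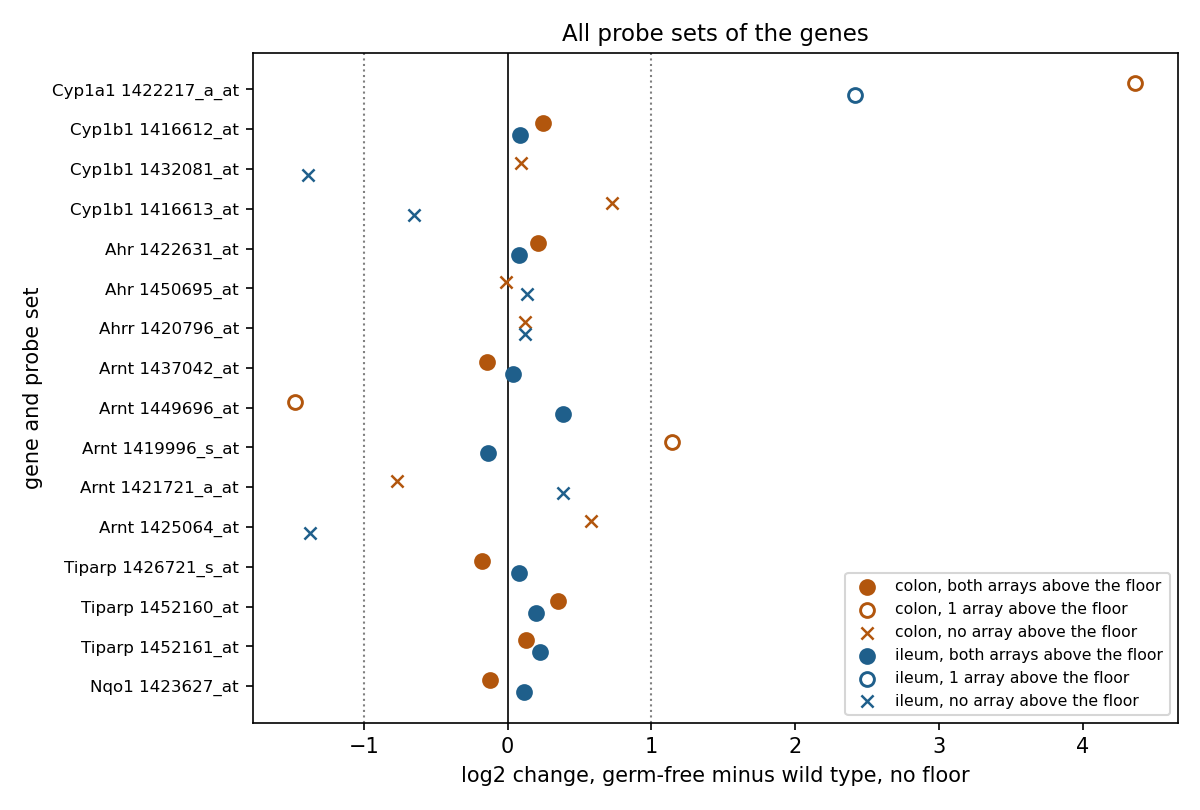
Log2 change, germ-free minus wild type and without a floor, for all 16 probe sets (brown colon, blue ileum; filled where both arrays were above the floor, open where 1 was, crosses where none was; dotted lines at 2-fold). Cyp1a1 lies at 4.36 and 2.42, the filled points lie between -0.18 and 0.38, and the other points past 2-fold have at least 1 array below the floor.

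Among the 7 genes, 6 were measured in each germ-free comparison, and 1, Cyp1a1, was at least 2-fold higher in each, with 0 at least 2-fold lower. As a background, 1.29% of all measured genes were called higher and 3.23% lower at 2-fold in germ-free colon, and 0.230% higher and 0.698% lower in germ-free ileum. The choice of the genes used these contrasts, so nothing is read from the count. The split between higher and lower genes in colon depended on the scaling: 152 were higher and 379 lower here, 296 and 275 as deposited, and 312 and 242 with median scaling, which moved the median of all genes in colon from -0.01 to 0.12 log2. The median change of the 6 measured genes was 0.04 in colon and 0.08 in ileum, against -0.01 and 0.03 over all measured genes.

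The 5 measured genes other than Cyp1a1 changed by 0.12 to 0.25 log2 in size in colon and by 0.04 to 0.12 in ileum. The median size of change over all measured genes was 0.26 in colon and 0.17 in ileum, so each of the 5 was below it in both regions. This held for 5 of 5 in ileum under both other scalings, and in colon for 4 of 5 as deposited and 3 of 5 with median scaling, where Ahr was among those above.

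**Figure D3:**
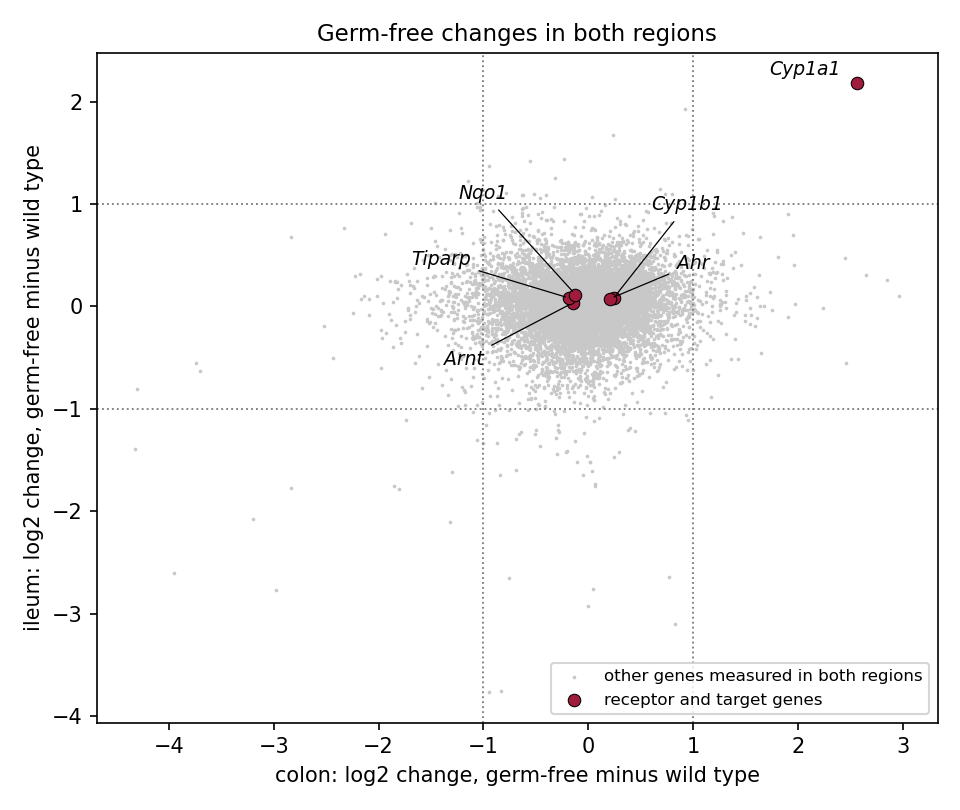
Log2 change, germ-free minus wild type, in colon (horizontal axis) and ileum (vertical axis) for the 11065 genes measured in both regions, with 6 receptor and target genes in red and dotted lines at 2-fold. Cyp1a1, a bound on both axes, lies at 2.57 and 2.18, and the other 5 lie within 0.25 of no change on both axes.

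Between ileum and colon the genes differed less than 2-fold in either state. On the germ-free arrays Cyp1a1 read 282 in ileum against 369.6 in colon (log2 -0.39), and on the wild type arrays it was below the floor in both regions. Ahr was lower in ileum in both states. It read 417 in germ-free ileum against 622 in germ-free colon (log2 -0.58), and 395 in wild type ileum against 538 in wild type colon (log2 -0.44). Arnt differed by -0.16 log2 on the germ-free and -0.34 on the wild type arrays by its brightest probe set, but by 0.15 and 0.29 with the mean of its probe sets. Tiparp had small positive differences of 0.33 and 0.07, and Nqo1 negative ones of -0.11 and -0.35. The directions by the brightest probe sets were the same as deposited and with median scaling. None of the 6 genes measured on the germ-free arrays, or of the 5 on the wild type arrays, was 2-fold apart, where 13.2% and 12.0% of all measured genes were.

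Subtracting the ileum change of a gene from its colon change gave 0.39 log2 for Cyp1a1, both changes being bounds, and values between -0.26 and 0.16 for the other 5 genes. Both wild type Cyp1a1 values stand at the same floor, so its 0.39 is only the difference between the germ-free readings. It does not show whether the germ-free change differs between regions. Without a floor the value was 1.95, from wild type readings below the floor. No replicate allows a test of these differences.

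Genes around the receptor were described from 5 lists chosen with earlier results of these data known, leaving out the 7 genes. Of 12 measured genes of the receptor complex in colon and 11 in ileum, 0 were 2-fold apart in either region, against 4.52% and 0.928% of all measured genes. The median changes were 0.03 in colon and 0.06 in ileum. Hsp90aa1, a chaperone that holds the receptor, read 2718 in germ-free colon against 3010 in wild type colon and 3149 in germ-free ileum against 3526 in wild type ileum. Rb1, a cell cycle brake that can bind the receptor, had changes of -0.08 and 0.06. Other partners of Arnt were unlike between the regions: Hif1a, a hypoxia factor, read 868 in germ-free ileum against 302 in germ-free colon and 823 in wild type ileum against 381 in wild type colon. Its relative Epas1 went the other way, at 1676 in germ-free ileum against 3739 in germ-free colon and 1955 in wild type ileum against 4255 in wild type colon. Hif1a, Epas1 and the other genes named here beyond the rule were picked after their values were seen.

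Of the other known targets, 13 of 20 with a probe set were measured in colon and 15 in ileum, and 0 were 2-fold apart in either region, against 4.52% and 0.928% of all measured genes. The median changes were 0.07 and -0.04, and both took the other sign when a gene's probe sets were averaged (-0.06 and 0.05). Scin, an actin-severing protein, read 3185 in germ-free colon against 4115 in wild type colon (log2 -0.37) and 6995 in germ-free ileum against 6343 in wild type ileum (log2 0.14). Nfe2l2, which encodes NRF2, had changes of -0.13 and -0.22, and Cyp2s1, a dioxin-inducible P450 of epithelia, 0.13 and 0.04. Cyp1a2, the neighbour of Cyp1a1 in the same family, and Aldh3a1, an aldehyde dehydrogenase, were below the floor on all arrays, at most 2.44 and 17.2. Ido1 is on this list too and is described with the tryptophan enzymes. It was lower on both germ-free arrays (log2 -0.85 in colon and -0.96 in ileum). Over the list, 7 genes were higher and 6 lower in germ-free colon, and 7 higher and 8 lower in germ-free ileum.

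Enzymes that turn tryptophan into ligands or their precursors were 0 of 7 past 2-fold in colon and 0 of 8 in ileum, against 4.52% and 0.928% of all measured genes, with medians of -0.13 and 0.04. In ileum 1 was past 2-fold when a gene's probe sets were averaged. Ido1, which starts the kynurenine path and is also an interferon target, read 418 in germ-free colon against 756 in wild type colon and 121 in germ-free ileum against 236 in wild type ileum. It was lower on both germ-free arrays (log2 -0.85 and -0.96), short of 2-fold each time. Maoa, an amine oxidase, had changes of -0.13 and 0.08, and Ddc, the aromatic amino acid decarboxylase, -0.68 and -0.16.

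The NRF2 battery, which shares Nqo1 with the receptor, had 3 of 18 measured genes at least 2-fold lower in germ-free colon, against 3.23% of all measured genes, and 0 higher, with a median of -0.11. When the floor was raised to the 75th percentile, 1 gene of this list was past 2-fold in colon. The 3 were Me1, malic enzyme, at 77.6 in germ-free colon against 306 in wild type colon, Gstm3, a glutathione transferase, at 947 in germ-free against 2343 in wild type colon, and Ephx1, microsomal epoxide hydrolase, at 65.5 in germ-free against 152 in wild type colon. In ileum 0 of 19 were past 2-fold, with a median of -0.04, and Gstm3 read 1435 in germ-free against 1179 in wild type. The pentose phosphate enzymes Pgd and Tkt had changes of 0.06 and 0.27 in colon and 0.24 and -0.04 in ileum.

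P450 enzymes need heme and electron donors. Of 11 genes listed for these, 10 were measured. The redox partner gene Por had no probe set of its own, so nothing is said of it. Of the 10, 0 were past 2-fold in colon (median -0.19), against 4.52% of all measured genes. In germ-free ileum 1 was higher (median -0.01), where 0.230% of all measured genes were: Cpox, a heme synthesis enzyme, at 239.8 in germ-free ileum against 114 in wild type ileum. Cpox was no longer past 2-fold when the floor was raised to the 75th percentile or with the mean of its probe sets. Alas1, the first enzyme of heme synthesis, read 571 in germ-free colon against 801 in wild type colon and 522 in germ-free ileum against 841 in wild type ileum. The cytochrome b5 genes Cyb5a and Cyb5b had changes between -0.07 and 0.03.

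**Figure D4:**
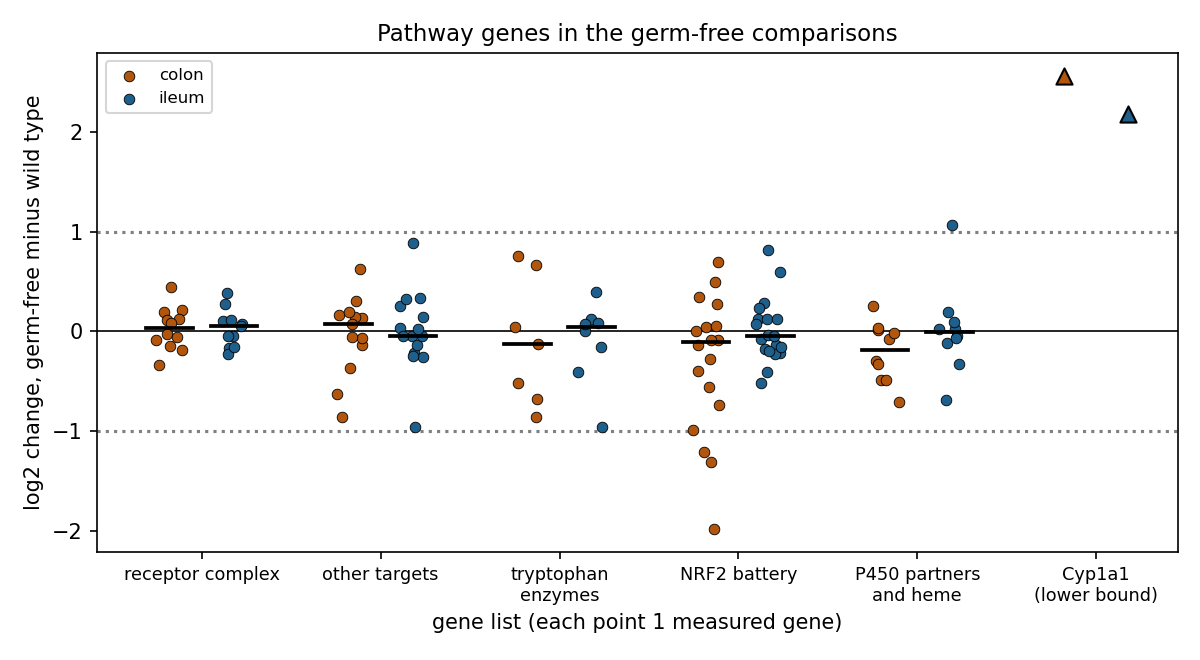
Log2 change, germ-free minus wild type, of each measured gene of the 5 lists (brown colon, blue ileum; black bars are list medians; dotted lines at 2-fold), with Cyp1a1 as triangles at its bounds of 2.57 and 2.18. The points past 2-fold are Me1, Gstm3 and Ephx1 in colon and Cpox in ileum.

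The genes with the pattern most like Cyp1a1 were sought among 7612 genes that exceeded an intensity of 259 (the 75th percentile of all arrays together) somewhere, by the root mean square difference of centred log2 values over the 4 arrays. The nearest was Mt2, a zinc- and copper-binding metallothionein, with a difference of 0.59. Mt2 read 3149 in germ-free colon against 1655 in wild type colon and 3630 in germ-free ileum against 956 in wild type ileum. Next came Tmem267 (0.68), Dck, a kinase of deoxynucleoside salvage (0.76), Pus3, a transfer RNA pseudouridine synthase (0.78), and Prmt6, an arginine methyltransferase (0.78). All 5 were higher on both germ-free arrays, by 0.80 to 1.29 log2 in colon and 0.66 to 1.92 in ileum. The second probe sets of 2 of them went against this: that of Pus3 read 84.0 in germ-free colon against 117 in wild type colon, and that of Prmt6 read 139 in germ-free ileum against 156 in wild type ileum. With 4 arrays, and a pattern chosen for its contrast, likeness says nothing more than that these values run in parallel.

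**Figure D5:**
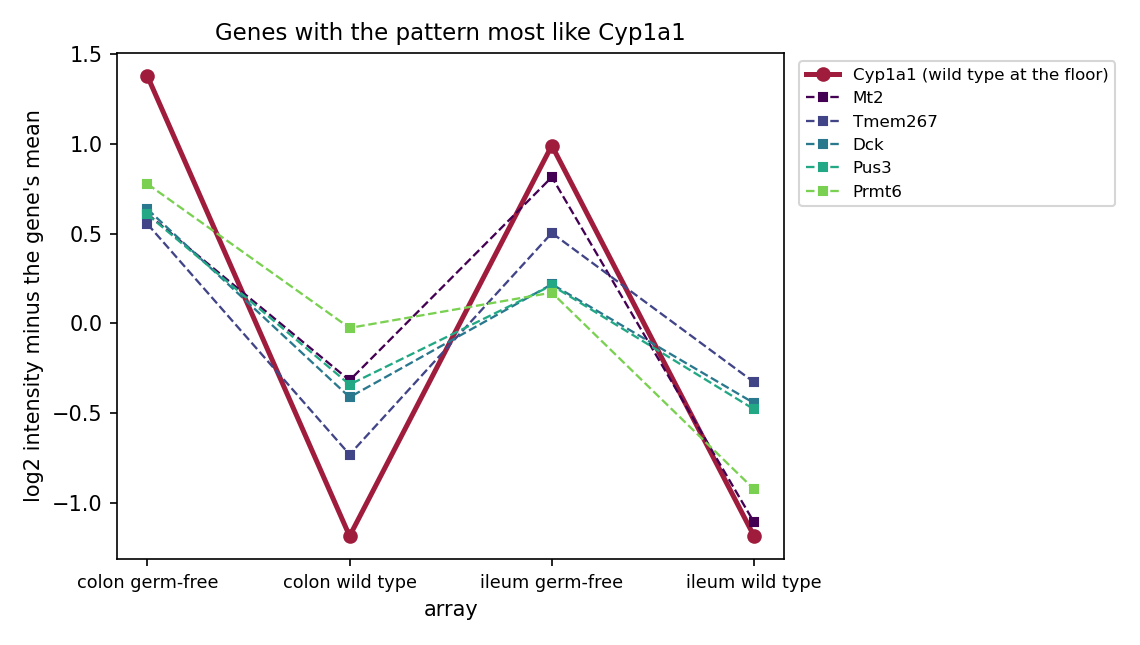
Log2 intensity minus each gene's own mean (vertical axis) on the 4 arrays (horizontal axis) for Cyp1a1 (solid red, wild type values at the floor) and the 5 genes most like it (dashed). Mt2 follows Cyp1a1 most closely, with a root mean square difference of 0.59, and differs most from it on the colon arrays.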

How the data were processed

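The deposited table holds linear probe set intensities for 4 mouse expression arrays (1 per group). Per the series' design text, the authors analysed the arrays in dCHIP2004; the options used there are not stated in the labels. Of 45101 probe sets 64 controls were set aside. The medians of the brighter 50% differed by 0.32 log2 between arrays, so the log2 values of the other 45037 were quantile-normalized. Lower values were set to a floor at the pooled median (62.4). Each gene was read from the probe set with its highest mean log2 intensity. The platform annotation gave 1 symbol to the probe sets used (34945; 932 had several and 9160 were unnamed here), and 34741 identifiers matched RefSeq (GRCm38.p6). Changes are differences of log2 values, germ-free minus wild type or ileum minus colon, called at 2-fold, with no p-value at 1 array per group. The members, lists and tests were chosen with earlier results of these data known. Named genes were the 7 members, list genes past 2-fold in a germ-free comparison, the 2 genes of highest mean intensity per list, and the 5 genes most like each member past 2-fold. Beyond this rule, Ido1, Hif1a, Epas1, Cyp2s1, Xdh, Cyp1a2, Aldh3a1 and Alas1 were named after their values were seen. Alternatives changed the scaling, the floor or the probe set. The steps were tested on simulated data, with changes placed only in bright genes. A rise from below the floor, as read for Cyp1a1, was not simulated. Python 3.11.15, numpy 2.4.6 and pandas 2.3.3 were used.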

Additional observations from a re-analysis of the deposited data

Results flagged for a closer look

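Some genes and list medians had changes of opposite sign in colon and ileum, with 1 array per group, so the difference between the regions was not tested. The colon change minus the ileum change was -0.18 log2 for Arnt, -0.26 for Tiparp and -0.24 for Nqo1. These 3 values come from single changes under 0.2 in size, and the colon sign of each turned with the scaling.

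Among the listed genes the same measure was -1.59 for Gstm3, whose change was -1.31 in colon and 0.28 in ileum with each sign kept as deposited and with median scaling. The measure was -0.51 for Scin, -0.41 for Hif1a, 0.32 for Tkt, 0.28 for Xdh (the purine enzyme xanthine dehydrogenase, also a receptor target), -0.20 for Maoa, -0.14 for Rb1 and -0.042 for Cyb5b. Gstm3, Scin, Hif1a and Tkt were each read from a probe set open to several transcripts. As deposited the changes of Rb1 (-0.07 in colon and -0.01 in ileum) and Cyb5b (-0.03 in both) were negative in both regions. So were those of Cyb5b with median scaling. Scin, Hif1a, Tkt, Xdh and Maoa kept opposite signs under both scalings. The Hif1a changes were then close to none, at -0.08 in colon and 0.02 in ileum as deposited. With median scaling they were -0.05 and 0.04. The Maoa change in ileum was 0.01 as deposited. The median of the other known targets differed by 0.11 between colon and ileum, and that of the tryptophan enzymes by -0.17. When a gene's probe sets were averaged, the median of the other known targets was -0.06 in colon and 0.05 in ileum, so both signs turned.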

How the results depend on the processing

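The Cyp1a1 changes kept their sign under each alternative that gave a value. They were 2.77 in colon and 2.07 in ileum as deposited, and 2.75 and 2.11 with median scaling. With a floor at the pooled 25th percentile they were 4.20 in colon and 2.42 in ileum, without a floor 4.36 and 2.42, and with a floor at the pooled 75th percentile 0.52 and 0.13, so the count of members past 2-fold was then 0 in both regions. That floor is 259, close under the germ-free readings. The count was also 0 when probe sets open to several transcripts were left out, since Cyp1a1 then has none. In wild type mice, ileum against colon, it was 1 with the floor at the 25th percentile and 1 without a floor, from Cyp1a1 readings below the main floor. Of 182 values of the members' changes under these alternatives, 167 moved by less than the spread between probe sets, and 0 of the called changes reversed. This spread is the SD between the brightest 2 probe sets of the same gene, pooled over genes. For germ-free against wild type, the colon arrays gave a spread of 0.26 log2 and the ileum arrays 0.20 log2. No paired analysis was possible because each group has 1 array, so that groups share fewer than 2 replicate numbers. A fit of both regions together with region as a term was not run, since the genes were chosen on this contrast. Probe sets near the floor, 9 of 16 below it on at least 1 array, limit what can be said of Cyp1b1, Ahrr and the dimmer Arnt probe sets. Counts of list genes past 2-fold moved as well. The NRF2 battery had 1 in colon with the floor at the 75th percentile (3 in the report), and in ileum 1 with the floor at the 25th percentile and 3 without a floor (0 in the report). Without a floor, 4 of the other known targets were past 2-fold in colon and 5 in ileum, and 1 tryptophan enzyme in each region. In ileum 2 of the other known targets were past 2-fold with the floor at the 25th percentile, and 1 tryptophan enzyme when a gene's probe sets were averaged (0 in the report for both). The heme and P450 partner list had 0 in ileum with the floor at the 75th percentile and when a gene's probe sets were averaged (1 in the report). Over all measured genes 15.7% in colon and 10.2% in ileum were past 2-fold without a floor, 7.46% and 2.41% with the floor at the 25th percentile, and 2.61% and 0.383% with that at the 75th.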
